A study of Homo sapiens with 6 samples.

Results

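The 74 genes described here encode proteins of the mitochondrial ribosome whose symbols are MRPL or MRPS followed by a number. They were taken by symbol from the 20503 genes that could be named on the array, of which 16601 were tested, and each was represented by 1 probe, the one with the highest mean signal over the 6 arrays. Of the 74 genes, 50 encode proteins of the large subunit, MRPS30 among them in spite of its symbol, and 24 encode proteins of the small subunit. All 74 chosen probes were well above background on all 6 arrays, so that none was lost to the filter on dim probes. The arrays compared 3 separate experiments with A673/TR/empty cells, the control, and 3 with A673/TR/LOX-PP cells, called LOX-PP here, both made from A673, a cell line derived from Ewing sarcoma, with the tetracycline repressor (TR). The control carries the lentiviral vector without insert, and the other cells carry the propeptide of lysyl oxidase (LOX-PP) under a promoter that doxycycline switches on, each as stable cells selected with zeocin. Doxycycline was given for 72 h at 1 uM according to the labels. The labels repeat that treatment for every sample, while the wording of the study can be read as covering both sets of cells or LOX-PP alone, so it is unclear if the empty-vector cultures had doxycycline too.

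Mitochondria translate a small set of proteins from their own genome, all of them subunits of the respiratory chain or ATP synthase, on a ribosome of their own. The RNA of this ribosome comes from mitochondrial DNA, whereas all of its proteins are encoded in the nucleus, made in the cytosol and imported. Some of these proteins have a counterpart in the bacterial ribosome and others exist only in mitochondria. Nuclear respiratory factor 1 (NRF1), the ETS factor GABP and YY1 are known to bind promoters of many nuclear genes for mitochondrial proteins.

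Expression was compared on a log2 scale, relative to the 75th percentile of each array. A change means the mean log2 signal of the LOX-PP arrays minus that of the control arrays, minus the median of this difference over all 32647 tested probes (0.13), whereas p-values test the difference before that median is taken off. The probe of LOX served as a check of the labels, and it was not higher in LOX-PP (change -0.95, adjusted p = 0.218, limma with Benjamini-Hochberg adjustment). It read -0.09, 0.36 and 0.1 in the control and -0.12, -0.69 and -1.29 in LOX-PP, lower without overlap. The position of that probe relative to the propeptide is not given by the files, and directions therefore rest on the labels. All 7 Ewing sarcoma markers examined (CD99, NKX2-2, NR0B1, PRKCB, STEAP1, FLI1 and CCND1) were well above background on all 6 arrays. Between 56.9% and 74.8% of gene spots were well above background per array, and LOX-PP replicate 1 came from slide 2 and scan 2, unlike the other 5 arrays. The 75th percentile of log2 intensity was 11.48 and 11.70 on LOX-PP replicates 1 and 3. On the other arrays it lay between 12.60 and 12.90. Replicates are separate experiments with 1 set of cells per group, so the p-values cover the spread between experiments, and the effect of LOX-PP and other differences between the 2 sets of cells cannot be told apart.

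The promoters of the family were searched for 3 motifs. Windows from 250 bases before to 50 bases after the annotated start, taken from RefSeq on GRCh38.p14, were at hand for 66 of the 74 genes (82 windows, since some genes have several starts). On either strand, the NRF1 letters GCGCANGC were found in 29.3% of these windows, compared with 12% of all 35116 windows of that length. The ETS letters CCGGAAG were found in 37.8%, compared with 10.3% of all windows, and the YY1 letters AAGATGGCG in 13.4%, compared with 1.75%. Over the 22199 windows of protein-coding genes alone, the shares were 15.1% for NRF1, 12.8% for ETS and 2.41% for YY1. None of the 3 strings contains another, although their ends can overlap. Of the 66 genes, 18 had none of them while 1 gene had all 3. Printed here are 5 windows, 5′ to 3′ on the strand of the gene, with matched motifs in capitals. They belong to MRPL22, the gene with the highest change, and to the 4 genes with a window among the 6 with the lowest changes. The other two, MRPS28 and MRPL13, had no window. MRPL22 has an NRF1 match before the start and a YY1 match after it, MRPL42 has a YY1 match after the start, MRPS35 has an NRF1 match on the opposite strand, MRPS31 has an ETS match, and MRPL11 has no match.
MRPL22, chr5:154940823-154941122, forward strand: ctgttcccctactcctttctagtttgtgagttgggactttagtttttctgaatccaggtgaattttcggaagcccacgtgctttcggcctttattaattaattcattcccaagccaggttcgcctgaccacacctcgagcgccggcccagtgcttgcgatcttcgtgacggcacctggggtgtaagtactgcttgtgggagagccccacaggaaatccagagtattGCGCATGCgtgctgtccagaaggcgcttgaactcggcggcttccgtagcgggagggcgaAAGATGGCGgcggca
MRPL42, chr12:93467264-93467563, forward strand: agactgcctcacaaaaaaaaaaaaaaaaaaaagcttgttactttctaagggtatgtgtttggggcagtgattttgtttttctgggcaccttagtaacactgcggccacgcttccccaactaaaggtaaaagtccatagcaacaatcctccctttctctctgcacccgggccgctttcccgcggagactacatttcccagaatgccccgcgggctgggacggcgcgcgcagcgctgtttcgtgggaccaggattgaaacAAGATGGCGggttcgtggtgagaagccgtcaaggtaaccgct
MRPS35, chr12:27710582-27710881, forward strand: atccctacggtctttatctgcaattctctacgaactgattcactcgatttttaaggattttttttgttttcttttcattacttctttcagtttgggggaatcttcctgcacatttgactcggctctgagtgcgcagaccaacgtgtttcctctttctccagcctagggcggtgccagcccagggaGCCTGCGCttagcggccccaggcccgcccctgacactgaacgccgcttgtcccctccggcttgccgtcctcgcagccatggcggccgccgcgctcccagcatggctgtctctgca
MRPS31, chr13:40771141-40771440, reverse strand: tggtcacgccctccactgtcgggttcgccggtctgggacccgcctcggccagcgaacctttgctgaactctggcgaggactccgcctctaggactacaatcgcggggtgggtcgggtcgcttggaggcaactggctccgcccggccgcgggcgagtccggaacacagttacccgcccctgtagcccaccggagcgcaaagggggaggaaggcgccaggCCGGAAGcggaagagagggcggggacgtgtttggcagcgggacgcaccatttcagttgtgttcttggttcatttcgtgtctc
MRPL11, chr11:66438799-66439098, reverse strand: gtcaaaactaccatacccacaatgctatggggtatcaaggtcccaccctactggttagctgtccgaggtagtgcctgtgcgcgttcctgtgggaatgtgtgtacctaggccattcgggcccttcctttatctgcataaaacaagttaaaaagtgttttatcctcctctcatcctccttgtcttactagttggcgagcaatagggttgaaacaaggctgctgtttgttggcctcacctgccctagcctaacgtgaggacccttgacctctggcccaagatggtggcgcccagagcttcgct

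Among the mitochondrial ribosomal protein genes, MRPL22 passed the threshold on the higher side and none passed on the lower side. Most of the others lay slightly below the median of all probes, with a median change of -0.22 on the log2 scale. The change was below 0 for 58 of the 74 genes and above 0 for 16, and the middle of the distribution ran from -0.41 to -0.02 (quartiles). Over all 16601 tested genes the median was -0.09 and 56.5% lay below 0, and over the 3320 genes with signals as bright (the highest 2 of 10 groups ordered by mean signal, which hold 63 of the 74 genes) the median was -0.14 and 63.0% lay below 0. Under quantile normalization, where the median difference of all probes is -0.03 in place of 0.13, the median of the family was -0.06 and 47 of the 74 genes lay below 0, so that the size of this shift depends on the scaling. In bulk RNA, fewer expressing cells within a culture and less of these RNAs per cell cannot be told apart.

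**Figure D1:**
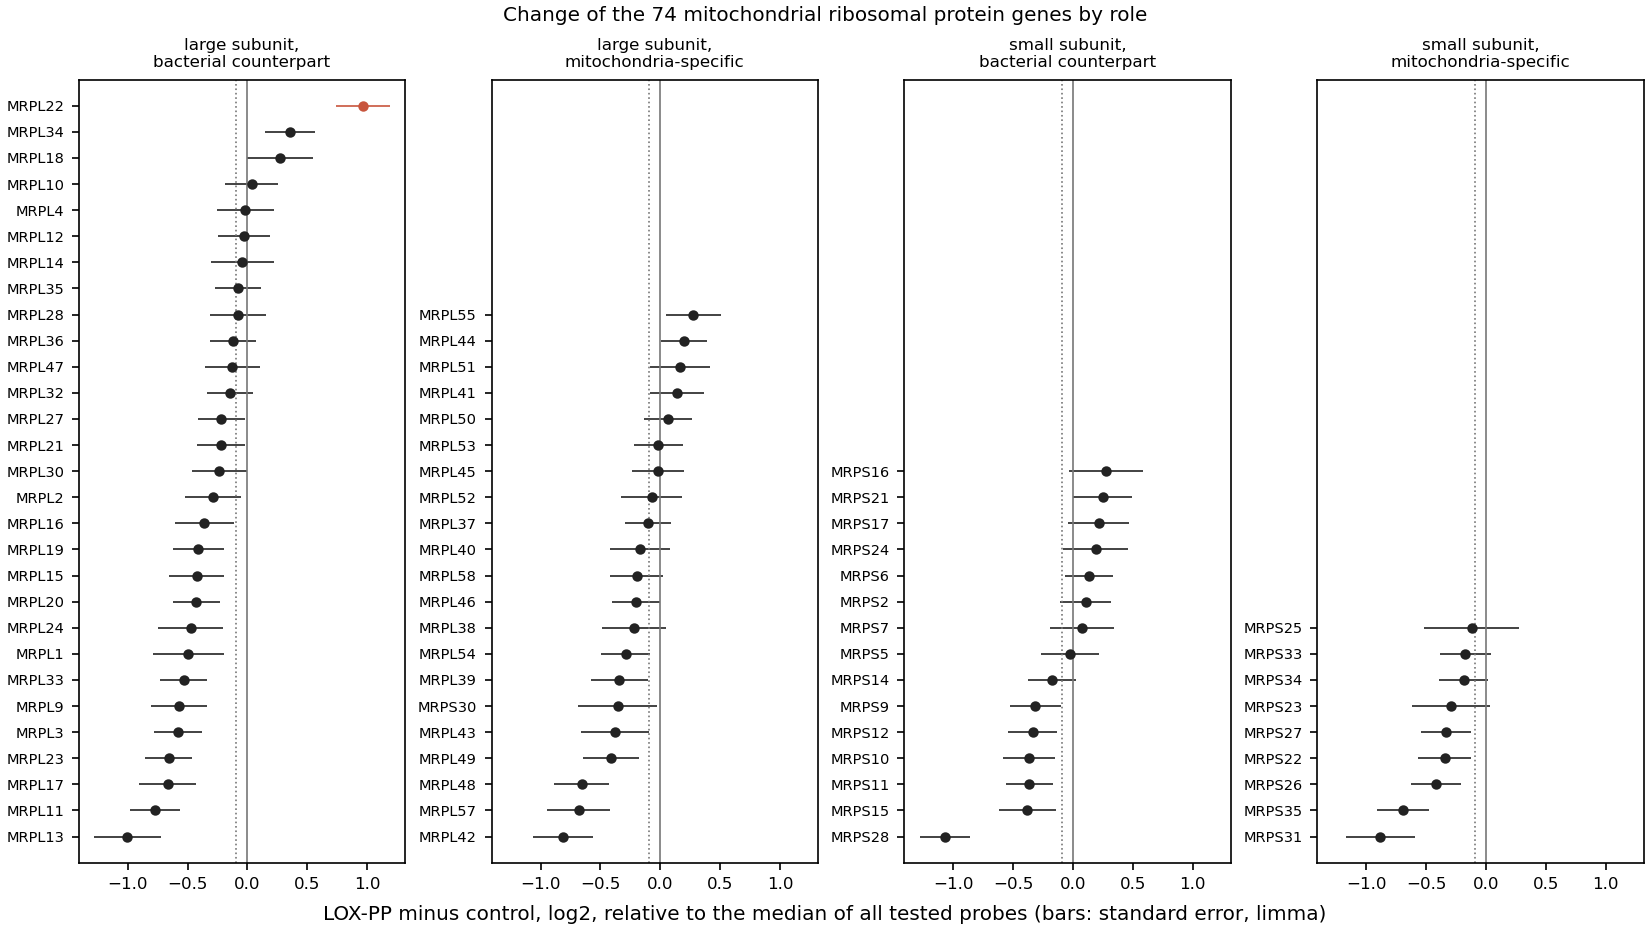
Change of each of the 74 genes on the horizontal axis (log2, relative to the median of all tested probes), in 4 panels by subunit and by whether the protein has a bacterial counterpart. Points are changes and bars are standard errors from limma, the solid line marks 0 and the dotted line marks the median of all tested genes (-0.09). MRPL22, in red, lies at 0.97 and is the single gene that passed the threshold, and all 9 genes of the panel on the right lie below 0.

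Of the 74 genes, 1 (1.35%) had an adjusted p under 0.05, where 5.65% of all tested probes did, 3.3% on the higher side and 2.35% on the lower side. With 1 probe per gene, as for the members, the share was 7.05% of all tested genes and 1.27% of the 3320 genes with signals as bright. Without adjustment 8 of the 74 genes (10.8%) had a p under 0.05 in limma, 1 of them higher and 7 lower. The share was 21.3% of all probes, 23.6% of all tested genes and 12% of the bright genes. The methods' t-test passed 0 of the 74 after the same adjustment. Under quantile normalization the probes that passed were 908 higher and 981 lower, in place of 1077 and 767. The groups did not overlap for 25 genes, 7 of them with all LOX-PP arrays above all control arrays (9.46%, where 16.2% of all probes are so placed) and 18 with all of them below (24.3%, where 13.3% of all probes are so placed). Over all tested genes these shares were 15.5% and 18.1%, and for the bright genes 10.8% and 18.5%. The other 49 of the 74 genes overlapped. A change of at least 2-fold either way was found for 2 genes (2.70%), compared with 14.1% of all tested genes and 3.01% of the bright ones. The standard errors of the 74 changes ran from 0.19 to 0.40 with a median of 0.23, and the 95% interval of a change reached a median of 0.54 to either side. The interval of the difference before the median is taken off lay within 2-fold of 0 for 59 of the 74 genes, and for the other 15 it reached 2-fold.

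MRPL22, whose protein lies beside the exit of the tunnel through which new chains leave the ribosome, was the gene that rose. Its log2 signal over the 75th percentile of the array was 3.90, 4.18 and 4.21 in control replicates 1 to 3 and 5.14, 4.97 and 5.45 in those of LOX-PP. The lowest LOX-PP array thus lay above the highest control array, and the spread within each group was small beside the gap. The change was 0.97 with a standard error of 0.23, that is 1.95-fold (95% interval on the log2 scale from 0.42 to 1.51), and the adjusted p was 0.0421 (limma with Benjamini-Hochberg adjustment). Its 20 nearest tested genes on chromosome 5 had a median change of 0.19. The call was lost without any single array, with adjusted p values of 0.226, 0.163 and 0.0917 without control replicates 1, 2 and 3 and of 0.0534, 0.0722 and 0.0949 without LOX-PP replicates 1, 2 and 3. The change itself stayed between 0.79 and 1.15 in all 16 alternatives, some of which could not alter it. The adjusted p was 0.05 or above in 10 of them, with the fit without LOX-PP replicate 1 counted again as the slide block.

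After MRPL22 the highest changes belonged to MRPL34 (0.36), MRPL55 (0.28), MRPL18 (0.28), MRPS16 (0.27) and MRPS21 (0.25), none of which passed the threshold. MRPL34, a small protein of the large subunit with a bacterial counterpart, had log2 signals of 5.16, 5.16 and 5.37 in the control and of 5.6, 5.64 and 5.91 in LOX-PP. These groups did not overlap, and the adjusted p was 0.242. MRPL18, which in the human mitochondrial ribosome lies near the transfer RNA built into the large subunit, gave 4.82, 4.94 and 4.12 in the control and 4.98, 4.95 and 5.15 on the others. Control replicate 3 was the low array here, and without it the change was -0.04. MRPS16, a small-subunit protein with a bacterial counterpart, gave 5.32, 5.46 and 5.43 on the control arrays against 6.42, 5.31 and 5.69. LOX-PP replicates 1 and 3 lay above all control arrays and replicate 2 did not, and without replicate 1, the highest, the change of MRPS16 was -0.07.

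The lowest changes belonged to MRPS28 and MRPL13, both encoded on chromosome 8, then to MRPS31 on chromosome 13, MRPL42 and MRPS35 on chromosome 12, and MRPL11 on chromosome 11. MRPS28, the counterpart of bacterial ribosomal protein S1 in the small subunit, had log2 signals of 4.42, 4.59 and 4.47 in the control and of 3.74, 3.37 and 3.55 in LOX-PP. The groups lay well apart, with a change of -1.07 and a standard error of 0.21. Its adjusted p of 0.0508 missed the threshold (limma with Benjamini-Hochberg adjustment), and it was 0.0407 under quantile normalization and 0.0383 without LOX-PP replicate 1, which is also the fit within slide 1. Over all 16 alternatives it ran from 0.0235 to 0.220, and the change from -1.25 to -0.83.

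MRPL13, a large-subunit protein with a bacterial counterpart, gave 4.86, 5.24 and 5.31 in the control and 3.84, 4.28 and 4.67 in LOX-PP. The groups did not overlap but the LOX-PP arrays were widely spread, and the change of -1.0 (standard error 0.28) had an adjusted p of 0.136. MRPS31, which exists only in mitochondria, gave 3.77, 4.02 and 3.96 and then 2.65, 3.25 and 3.59, a change of -0.88 with an adjusted p of 0.193. MRPL42, a mitochondria-specific protein of the large subunit, gave 3.04, 3.31 and 3.12 and then 2.08, 2.65 and 2.69, a change of -0.81 with an adjusted p of 0.175. In these 3 genes replicate 1 of LOX-PP was the lowest array. MRPS35, specific to the mitochondrial small subunit, gave 4.65, 5.06 and 4.74 in the control and 4.31, 4.11 and 4.34 in LOX-PP, a change of -0.69 with an adjusted p of 0.20. None of these 4 genes passed the threshold, although in each the groups did not overlap.

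**Figure D2:**
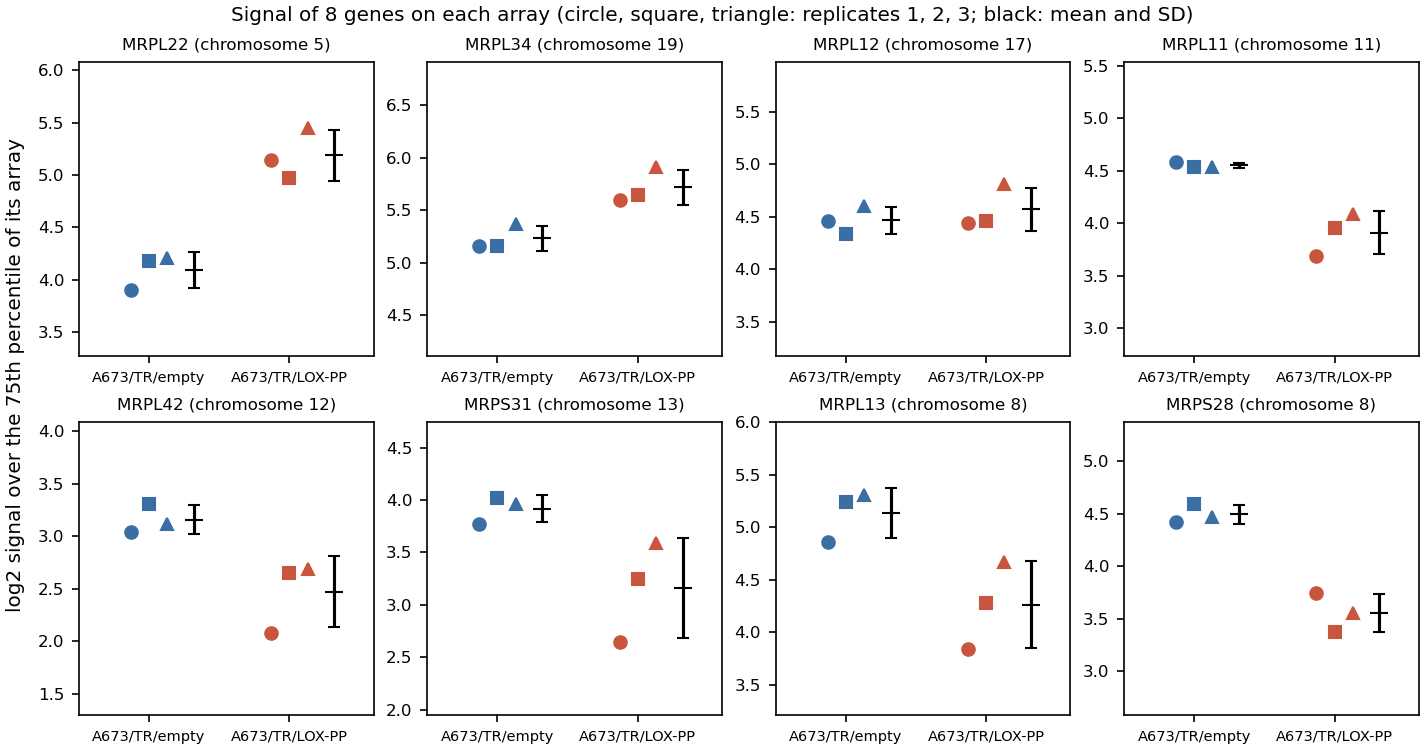
Log2 signal over the 75th percentile of the array (vertical axis, each panel spanning the same range) for 8 genes, with the 3 control arrays in blue and the 3 LOX-PP arrays in red. Symbols mark replicates 1 to 3 and black bars the mean and SD. MRPL22 and MRPL34 are higher on all LOX-PP arrays, MRPL12 overlaps, and MRPL11, MRPL42, MRPS31, MRPL13 and MRPS28 are lower on all of them.

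By role, the 50 large-subunit genes had a median change of -0.22, with 41 below 0, and the 24 small-subunit genes one of -0.24, with 17 below 0. Of the large subunit, the 29 genes with a bacterial counterpart had a median of -0.23 (25 below 0) and the 21 specific to mitochondria one of -0.19 (16 below 0). The small subunit divided more. Its 15 genes with a bacterial counterpart had a median of -0.03, with 8 below 0 and 7 above, and among them MRPS16, MRPS21, MRPS17 (0.21) and MRPS24 (0.19) lay highest and MRPS28 lowest. All 9 small-subunit genes specific to mitochondria lay below 0, from -0.88 for MRPS31 to -0.12 for MRPS25, with a median of -0.34. Under quantile normalization the medians were -0.14 and -0.01 for the 2 groups of the large subunit and -0.08 and -0.06 for those of the small subunit, with 7 of the 9 specific genes below 0, so that this order was not kept. The difference between role groups was not tested.

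The proteins of the stalk recruit translation factors to the ribosome, and the changes of their genes lay near 0 apart from MRPL54 and MRPL11. MRPL12, which also binds the mitochondrial RNA polymerase, had log2 signals of 4.46, 4.34 and 4.60 in the control and of 4.44, 4.46 and 4.81 in LOX-PP. The groups overlapped and the change was -0.03, with a 95% interval from -0.54 to 0.49. MRPL10, at the base of the stalk, had a change of 0.04, MRPL53 of -0.02 and MRPL54 of -0.29. MRPL11, also at the base of the stalk, gave 4.58, 4.54 and 4.54 in the control and 3.69, 3.95 and 4.09 in LOX-PP. The control arrays lay close together and above all others, and the change of -0.77 had an adjusted p of 0.138. MRPL10, MRPL12 and MRPL53 turned sign under another scaling, filter or background correction, and over all alternatives these 3 stayed between -0.21 and 0.30.

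The 5 genes for proteins around the exit of the tunnel had changes from -0.66 to 0.97. Beside MRPL22, MRPL23 had log2 signals of 4.08, 4.04 and 4.04 in the control and of 3.42, 3.46 and 3.68 in LOX-PP. These groups did not overlap, with a change of -0.66 and an adjusted p of 0.186. MRPL24 had a change of -0.48, MRPL47 of -0.13 and MRPL45, which holds the ribosome to the inner membrane, of -0.02, and in these 3 the groups overlapped. MRPL45 was 0.20 under quantile normalization. Of the other genes with particular functions, MRPL58, which can free stalled chains from the ribosome, had a change of -0.19, MRPL44, whose protein has a fold like that of ribonuclease III, one of 0.20, and MRPL36 one of -0.12.

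For most of these genes the SD was larger over the LOX-PP arrays than over the control arrays. The median SD was 0.12 in the control and 0.22 in LOX-PP, and 51 of the 74 genes had the larger SD on the latter. Over all tested probes the median SDs were 0.24 and 0.43, and 74.5% of probes had the larger SD in LOX-PP. Among the 3 LOX-PP arrays, replicate 1 was the lowest for 34 genes and the highest for 24, replicate 2 the lowest for 33 and the highest for 4, and replicate 3 the lowest for 7 and the highest for 46. Without replicate 2 the median change of the family was -0.11 in place of -0.22.

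Of the 74 genes, 12 were measured by 2 probes, whose positions on the transcripts were not known here. In 9 of the 12 both probes had a change of the same sign. MRPL12 gave -0.03 and -0.05, and MRPL10 0.04 and 0.02, so their probes were close. MRPL19, a protein of the large subunit, gave -0.41 on the brighter probe and -0.99 on the other. Its second probe read 1.39, 1.86 and 1.09 in the control and 0.54, 0.58 and 0.63 in LOX-PP, without overlap, at an adjusted p of 0.108. MRPL52 gave -0.07 and -0.91, and its second probe read 2.63, 2.77 and 2.68 and then 1.80, 2.21 and 1.72, again without overlap. Signs were opposite for MRPS16 (0.27 and -0.64), MRPL43 (-0.38 and 0.30) and MRPL45 (-0.02 and 0.38). The MRPL43 probes carry different transcript accessions, and the second is far dimmer. It read -3.49, -3.45 and -3.53 in the control, where the first read 3.82, 3.73 and 4.09. Over all tested genes, with 1 probe per gene, the dimmest of the 10 signal groups had a median change of 0.27. Whether the opposite sign of this probe reflects a change particular to 1 transcript was not tested. The difference between the 2 probes was tested with limma over all 4308 genes with at least 2 tested probes, of which 56 (1.3%) passed an adjusted p under 0.05 and 20.2% an unadjusted one. None of the 12 genes passed, and 2 did without adjustment, MRPL52 (difference 0.84, adjusted p = 0.191) and MRPL19 (difference 0.58, adjusted p = 0.152).

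**Figure D3:**
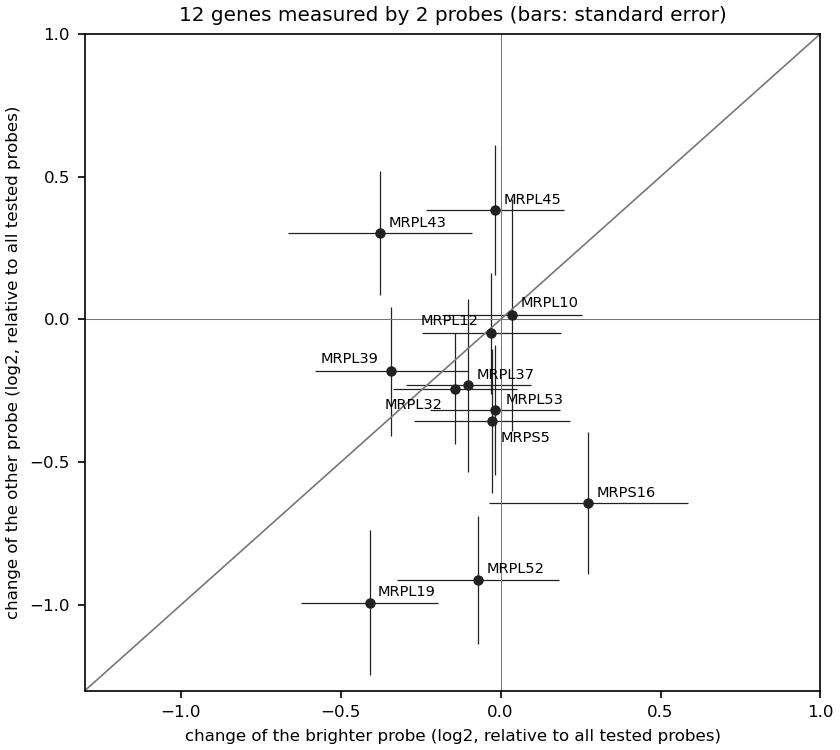
Change of the brighter probe (horizontal axis) against that of the other probe (vertical axis) for the 12 genes with 2 probes, both log2 and relative to the median of all tested probes, with bars for standard errors and the diagonal for equal changes. MRPL19 and MRPL52 lie farthest below the diagonal among genes with probes of the same sign, and MRPL43 and MRPL45 lie above it.

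Of the 6 genes with the lowest changes, 3 lie on chromosomes 8 and 13. The 3 members on chromosome 8 (MRPS28, MRPL13 and MRPL15) had changes of -1.07, -1.0 and -0.42, on a chromosome whose 559 tested genes had a median of -0.42. The 2 members on chromosome 13 (MRPS31 and MRPL57) had changes of -0.88 and -0.68, and the 285 genes of that chromosome had a median of -0.82. MRPL57, a small mitochondria-specific protein, gave 3.09, 3.43 and 2.87 in the control and 2.72, 2.78 and 2.23 in LOX-PP, with an adjusted p of 0.278. All 7 members on chromosome 11 lay below 0, with a median of -0.66 beside -0.27 for the 1004 genes of the chromosome. All 3 members on chromosome 9 lay above 0, with a median of 0.10 beside 0.07 for its 654 genes.

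The genes next to each member were examined in the same way. Around MRPS28 the 20 nearest tested genes had a median of -1.20, around MRPL13 -0.79, around MRPS31 -0.91 and around MRPL57 -1.0. Around MRPL15 the median was 0.01, and around MRPL11 -0.14. Across the 74 genes, the change of a gene and the median of its neighbours (10 tested genes on each side) had a Pearson r of 0.55 and a Spearman rho of 0.42, given as a description, since the genes share the same 6 arrays and some share neighbours. For the 69 genes outside chromosomes 8 and 13, r was 0.35. Without the 5 genes of these chromosomes the median change of the family was -0.19. The copy number of these chromosomes in the cells was not measured, and its part in these changes was not tested.

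**Figure D4:**
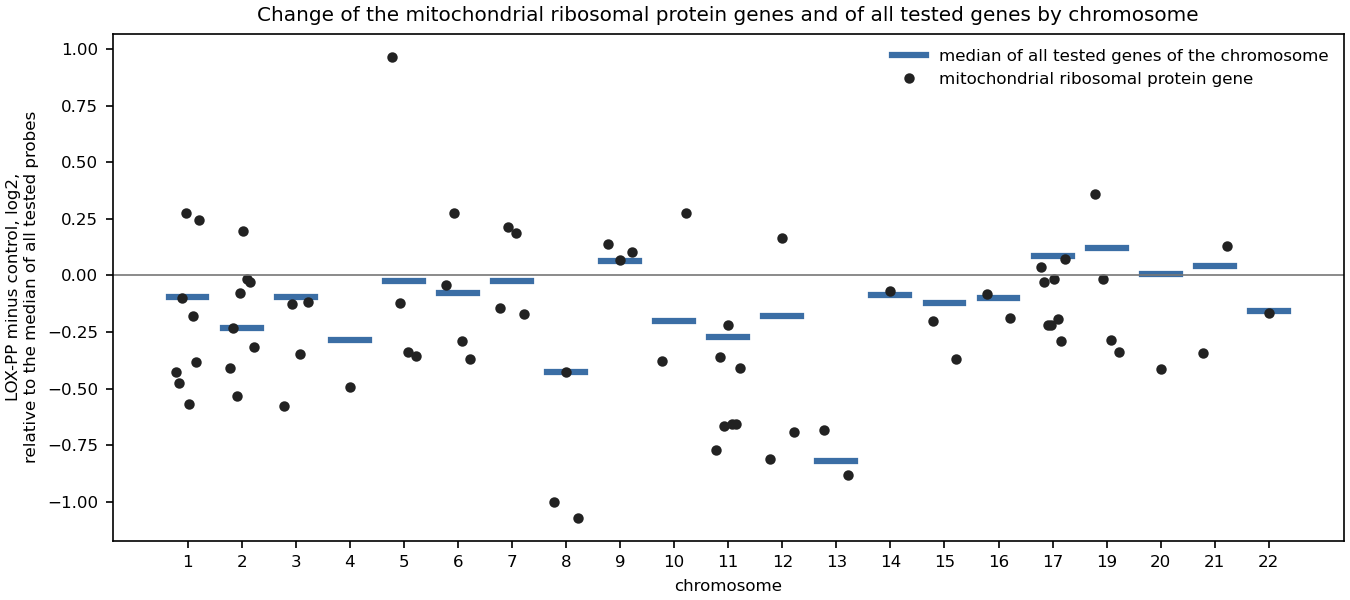
Change of each of the 74 genes (black points, log2, relative to the median of all tested probes) by chromosome, with a blue bar at the median of all tested genes of that chromosome. The bars of chromosomes 8 (-0.42) and 13 (-0.82) lie lowest among the chromosomes shown, which are those with at least 1 of the genes, and both points of chromosome 13 lie near its bar.

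Genes with and without a motif were spread over the range of changes. The 22 genes with an NRF1 match had a median change of -0.13 and the 44 without one -0.31. The 28 genes with an ETS match had a median of -0.23 and the 38 without -0.13. The 11 genes with a YY1 match, MRPL22 and MRPL42 among them, had a median of -0.14 and the 55 without -0.22. These groups were not tested. A match is a run of letters and does not show that a factor binds there. The factors themselves did not pass the threshold. NRF1 had a change of -0.25, YY1 of -0.12 and GABPB1, a partner of GABPA, of -0.09. GABPA, the DNA-binding subunit of GABP, gave 1.08, 1.73 and 1.20 in the control and -0.01, 0.28 and 0.80 in LOX-PP. These groups did not overlap, and the change of -1.10 had an adjusted p of 0.122. GABPB2, the other beta subunit, had a change of 0.75 with an adjusted p of 0.0983.

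In other lists of genes for mitochondrial translation 1 gene fell. It was MTERF3, a factor needed for assembly of the large subunit, encoded on chromosome 8, with log2 signals of 2.93, 3.13 and 3.12 in the control and of 1.26, 1.98 and 1.96 in LOX-PP. Its change was -1.45 (standard error 0.27, adjusted p = 0.0371, limma with Benjamini-Hochberg adjustment). Of the 26 genes for assembly and ribosomal RNA modification, 18 lay below 0, with a median of -0.22. The 1 call is 3.85% of this list, where 7.05% of all tested genes passed. Without adjustment, 23.6% of all tested genes had a p under 0.05 in limma. The other 25 genes of the list did not pass, among them MRM1, a methyltransferase of mitochondrial ribosomal RNA (-1.05, adjusted p = 0.0916). None of 17 translation factors, with MRPL58 of the family counted among them, passed in limma (2 without adjustment, 11.8%). Their median was -0.28. The lowest were MTRF1, a protein of the release factor family (-1.06, adjusted p = 0.0675), and MTIF3, an initiation factor (-0.84, adjusted p = 0.120), both on chromosome 13. None of 17 mitochondrial aminoacyl-tRNA synthetases, which charge transfer RNAs, passed in limma (5 without adjustment, 29.4%). Their median was -0.34, with NARS2 (-1.16, adjusted p = 0.0635) and EARS2 (-0.93, adjusted p = 0.0810) as examples. The 8 mitochondrial ribosomal proteins with a letter suffix or another name had a median of -0.04, from -0.25 for AURKAIP1 to 0.28 for MRPS18C, and none passed in limma (0 without adjustment).

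Of 11 genes for transcription and replication of mitochondrial DNA, 1 fell (9.09%, where 7.05% of all tested genes passed) and 10 did not pass. Their median was -0.09. The gene was TOP1MT, the mitochondrial topoisomerase I, also on chromosome 8, which gave 4.44, 4.56 and 4.30 in the control and 3.25, 3.11 and 3.45 in LOX-PP. The groups lay apart by far more than their spread, with a change of -1.3 (standard error 0.21, adjusted p = 0.0271, limma with Benjamini-Hochberg adjustment). POLG, the DNA polymerase of mitochondria, had a change of 0.44 with an adjusted p of 0.152. The methods' t-test passed 3 genes of all these lists, METTL15, POLG and TOP1MT. Of 9 tested nuclear regulators none passed in limma (3 without adjustment, 33.3%, where 23.6% of all tested genes had such a p). PPARGC1B, a coactivator of genes for mitochondria, had a change of -0.89 (adjusted p = 0.130). PPARGC1A, PDF and NDUFA4 of these lists had no tested probe. With TOP1MT and MTERF3, both calls in these lists lay on chromosome 8, and both were lost without control replicate 1, 2 or 3 or LOX-PP replicate 2 or 3, where 0 genes of these lists passed.

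The products of mitochondrial ribosomes join nuclear-encoded partners, whose genes were compared next. The 77 nuclear subunits of the respiratory chain and ATP synthase had a median change of 0.10, with 52 above 0, and none passed in limma or the methods' t-test (1 without adjustment in limma). SDHD, a subunit of complex II, was the lowest at -1.07 (adjusted p = 0.170). The 77 cytosolic ribosomal protein genes had a median of 0.60, with 74 above 0, and none passed. Without adjustment 14 did in limma (18.2%, where 23.6% of all tested genes and 12% of the bright genes did), 13 of them higher and 1 lower. RPL26 (0.72, adjusted p = 0.191) and RPS12 (0.74, adjusted p = 0.201) are examples, and the lowest change of the list was -1.97. The medians of these 2 lists were -0.01 and 0.07 under quantile normalization, compared with -0.06 for the mitochondrial ribosomal proteins. On single arrays the family stayed within a narrow band, its median relative to each gene's mean being -0.02, 0.04 and 0.11 in the control and -0.08, -0.11 and 0.08 in LOX-PP. These ranges overlap. The cytosolic list was at 0.86 on LOX-PP replicate 1 and at 0.51 on replicate 3, but at -0.28 on replicate 2, inside the range of the control arrays (-0.50 to -0.24). LOX-PP replicates 1 and 3 were also the dimmest arrays by their 75th percentile, and the part of this in the values was not tested. Differences between these lists were not tested.

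**Figure D5:**
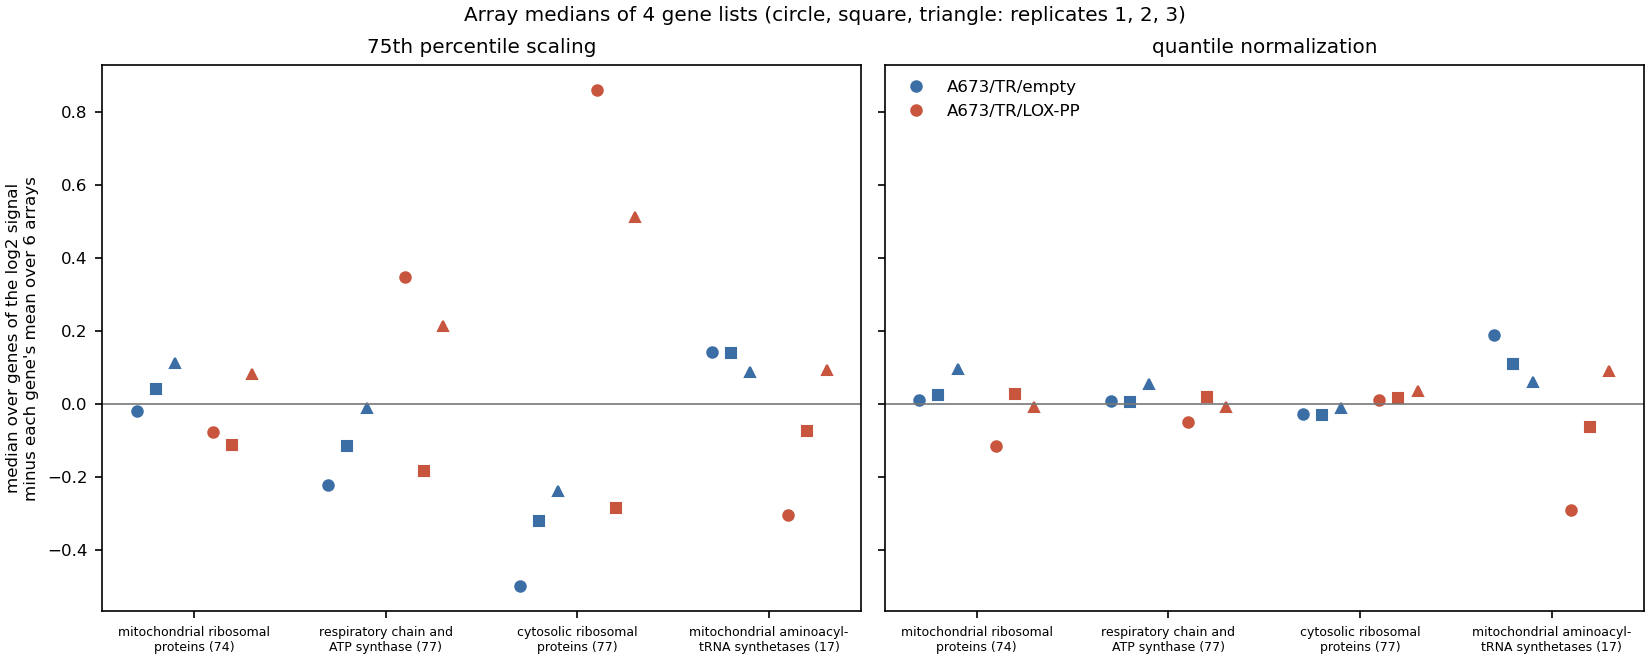
Median over the genes of a list of the log2 signal minus each gene's mean over the 6 arrays (vertical axis), for 4 lists with their numbers of genes, under scaling to the 75th percentile on the left and quantile normalization on the right. Each point is 1 array, blue for control and red for LOX-PP. The cytosolic ribosomal proteins reach 0.86 on the left while all their arrays lie near 0 on the right, and the mitochondrial ribosomal proteins lie between -0.11 and 0.11 in both panels.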

How the data were processed

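Total RNA of 6 cultures, labelled with Cy3, was run on 1-colour Agilent SurePrint G3 arrays. As deposited by the authors, the files give spot intensity, corrected for background by Feature Extraction (version 10.7 in the submitters' processing notes), and a table of log2 values. The deposited log2 values equal those used here, centred on each probe's median, within 0.02 for all 50599 probes. The normalization is not given in the sources used here.

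Spots of control probes and outliers were removed, except that all spots were kept for 71 probes with no other spot on at least 1 array. Log2 intensity was averaged per probe, and each array was set relative to its 75th percentile. Probes above background on 3 or more arrays (32647) were tested with limma (version 3.58.1, R 4.3.3), LOX-PP against control, at a Benjamini-Hochberg adjusted p under 0.05. The number of arrays limits the precision, and an exact permutation test of 3 against 3 cannot go below 0.1. Transcript accessions were matched to RefSeq symbols (28174 of 50599 probes). The table is of a later assembly than the array design, so it gave names, chromosomes and gene order, and the promoter windows printed carry its coordinates. Near-identical copies exist, with 97 pseudogene symbols of MRPL and MRPS genes in that table, and whether the probes bind them was not tested.

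The genes named are the called ones, the 6 highest and 6 lowest changes, the stalk and exit-site genes, those on chromosomes 8 and 13, those with probes of opposite sign, and in other lists the called genes and the 2 with the largest moderated t. Other genes were named after their values were seen. Members and lists were chosen with earlier results of these data known.

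Alternatives were quantile normalization, the median of bright probes, the deposited log2 values, normexp (offset 50), other filters, blocks for slide or for replicate number, the t-test of the methods, the mean of a gene's probes, and fits with 1 array removed. The test between 2 probes, the set without chromosomes 8 and 13 and the set with other symbols were chosen after seeing the data. The limma fit and the t-test, but not the other steps, were run on simulated normalized values with known changes.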

Additional observations from a re-analysis of the deposited data

How the results depend on the processing

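Scaling by the median of bright probes and the deposited log2 values differ from the main setting by a constant per array or per probe. They therefore could not move the medians, which were the same, and are no check of them. The genes called among the members and in the other lists were also the same. The tested probes called, 1844, were 516 with no filter, 850 with the replicate block, 566 in the methods' t-test and from 407 to 2054 when 1 array was left out. The replicate numbers did not pair the arrays (correlations of deviations 0.26, -0.38 and 0.22), and 0 of the 74 genes passed with the block. The member genes called, 1, were 2 under quantile normalization, normexp, the filter on all arrays and the mean of a gene's probes, MRPS28 being the gene added in each, and 0 with no filter, the replicate block and the methods' t-test, and from 0 to 1 without 1 array. The median changes of all members, large and small subunit (-0.22, -0.22 and -0.24) were -0.064, -0.056 and -0.072 under quantile normalization and -0.40, -0.40 and -0.42 with no filter. A filter alters only the median that is taken off. Each gene's own difference stayed the same, and all changes moved by the same amount. Genes of the other lists called, 2, were 0 with no filter and with the replicate block, 4 with the filter on all arrays and 6 with the mean of a gene's probes, and from 0 to 2 without 1 array. Without 1 array the medians ran from -0.28 to -0.11, from -0.28 to -0.085 and from -0.30 to -0.13, the highest without LOX-PP replicate 2. Signs turned for MRPL12 (0.15 under quantile normalization, 0.028 with the filter on all arrays), MRPL45 (0.20, 0.040 and, as mean of its probes, 0.18), MRPL53 (0.065 and 0.041), MRPL10 (-0.055 with normexp, -0.14 with no filter) and MRPS16 (-0.066 with the slide as a block, -0.18 as mean of its probes). With 1 array left out, changes that turned sign ran for MRPL10 from -0.057 to 0.12, for MRPL45 from -0.10 to 0.15, for MRPL47 from -0.26 to 0.026, for MRPL53 from -0.13 to 0.13, for MRPL18 from -0.044 to 0.50, for MRPS16 from -0.066 to 0.60 and for MRPL12 from -0.15 to 0.10. The turns with another filter came from the median taken off alone, and the cause of the others was not tested. Of 368 values of named genes over the alternatives, 330 kept direction and side of the threshold, 10 lost the call (all MRPL22), 6 gained it (all MRPS28) and 22 turned sign. These values are not independent checks. The slide block and the fit without LOX-PP replicate 1 are the same fit. The bright-probe median, the deposited values, the replicate block and the t-test could not alter the direction of a change. Another filter could do so only through the median taken off.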
